A study of Mus musculus with 12 samples.

Results

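This report describes the sex difference that was left in the liver of mice without somatostatin. Its members were the 6 arrays of sst -/- mice in a series of 12, one liver per array. They were assigned to 3 females and 3 males by the Y-linked gene Eif2s3y, which read 3.65, 3.73 and 3.23 in the females and 9.45, 9.32 and 9.56 in the males around a bound of 6 (log2 units). This assignment gave the labelled sex on all 6 arrays. The other 6 arrays were 3 females and 3 males of the sst +/+ genotype and serve as the comparison. All mice had the C57BL/6 background, were 16 weeks old, had food and water freely available under a fixed light and dark cycle, and are separate animals per the design in the series record. The somatostatin loss is germline and in the whole animal per the genotype, so a value in the liver is not a value of somatostatin action in the liver. RNA of about 100 mg of tissue was hybridised to Affymetrix mouse 3′ expression arrays, and levels are deposited RMA values on the log2 scale, so that a difference of 1 is a 2-fold difference.

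Somatostatin is the hypothalamic peptide that inhibits growth hormone release from the pituitary. In rodents growth hormone reaches the liver in separated pulses in males and more continuously in females, and hepatocytes read this pattern through the growth hormone receptor, JAK2 and the transcription factor STAT5B. Male-type genes of mouse liver, such as Cyp4a12a and the major urinary proteins, and female-type genes, such as Cyp2b9 and Sult3a1, are known to follow it. The question behind the comparison is which liver genes still tell the sexes apart when the inhibitory hormone is missing.

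Sst itself read 5.41, 5.43 and 5.44 in knockout males and 5.30, 5.27 and 5.34 in knockout females, against 5.26 to 5.66 in the wild-type mice, so the liver level did not separate the genotypes. The sources used here do not say whether the probe set falls inside the deletion, so Sst checks no label. The 6 hepatocyte markers tested had a mean level of 14.43 in knockout males and 14.45 in knockout females, and Alb read 14.77 to 14.89 on the 6 arrays.

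A sex difference was called in the knockout livers, and 5 of its genes were also called in wild type. Of 11778 autosomal genes tested, 224 differed between knockout females and males at an adjusted p under 0.05, which is 1.90% of the genes, and 218 of them (1.85%) were higher in females against 6 (0.0509%) that were lower. Only 5 of these 224 genes also differed in wild type: Crtap and Ociad2 kept their direction, and Cyp2b13, Keg1 and Tafa2 turned it round. The wild-type comparison called 235 genes (2.0%), of which 158 (1.34%) were higher and 77 (0.654%) lower in females, so a male-biased part was present there and almost absent in the knockout calls. Of the called genes 29 reached 2-fold in the knockout and 111 in wild type, while the median size over all autosomal genes was 0.15 and 0.14. An adjusted p here is from limma's moderated test over all genes tested, and a gene is called where it is under 0.05.

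**Figure D1:**
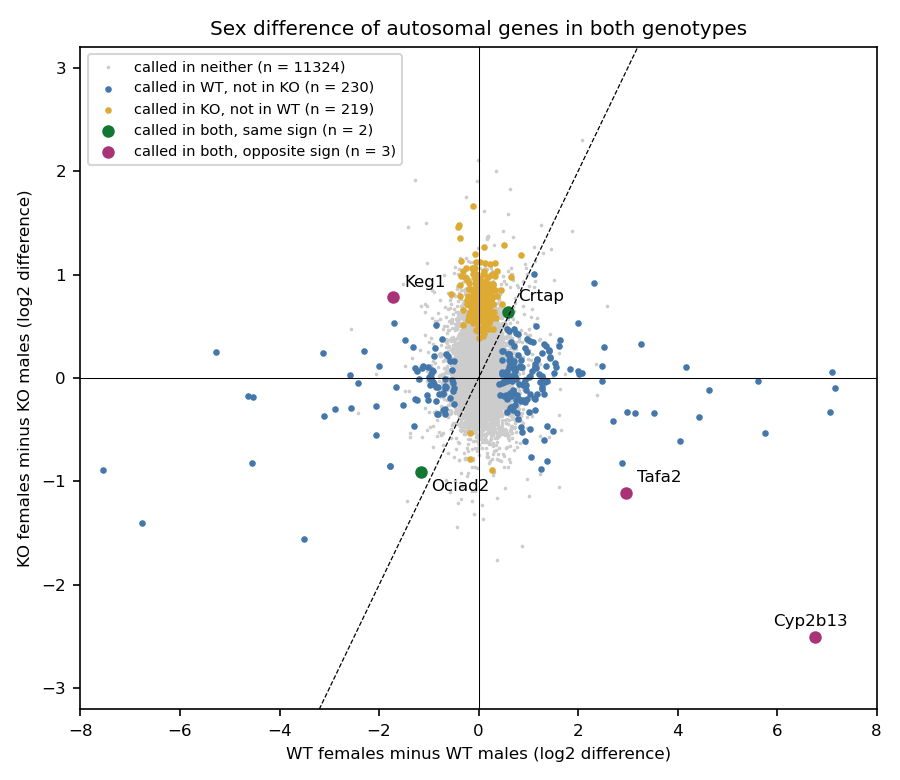
Each point is an autosomal gene with its log2 difference between females and males in wild-type (WT) mice on the horizontal axis and in somatostatin knockout (KO) mice on the vertical axis, with the dashed line marking equal values and 3 mice per group. The 230 genes called in wild type alone spread along the horizontal axis, the 219 called in the knockout alone sit above 0 with 3 exceptions, and Crtap and Ociad2 lie near the line of equal values.

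The count of knockout calls rested on single mice. It was 2 without knockout male 1, 2 without knockout male 2 and 16 without knockout female 1, and 223, 194 and 150 without knockout female 2, knockout male 3 and knockout female 3. It was 10 when only the 6 knockout arrays were fitted, so that the spread of the wild-type arrays no longer entered the test. Without knockout female 2 the split was 181 higher and 42 lower. Arrays shifted to a common median gave 84 calls and array weights 505, and the unadjusted count of genes with p under 0.05 was 1843. Of the 224 genes 210 were called in at most 3 of the 6 fits that leave out a knockout array.

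Crtap was 1 of the 2 genes that stayed different. It encodes a protein of the complex in the endoplasmic reticulum that hydroxylates collagen prolines. Its levels were 6.98, 7.16 and 7.11 in knockout males and 7.69, 7.65 and 7.84 in knockout females, and all females lay above all males. In wild type the males read 6.43, 6.84 and 6.70 and the females 7.33, 7.12 and 7.30, so both sexes were higher in the knockout than in their wild-type counterparts on average and the step between the sexes was alike. The female excess was 0.64 ± 0.12 (SE, n = 3 per sex; adjusted p = 0.0266) in the knockout and 0.59 (adjusted p = 0.0294) in wild type. The change between the genotypes was 0.05 with a 95% interval of -0.33 to 0.43 (adjusted p = 0.925). The knockout call was lost without knockout male 1 (0.59, adjusted p = 0.138), knockout male 2 (0.68, 0.129), knockout male 3 (0.65, 0.0531), knockout female 1 (0.66, 0.0964) or knockout female 3 (0.59, 0.0707), while the difference itself ranged only from 0.57 to 0.68 over 28 alternative settings, with adjusted p from 0.0122 to 0.138. The wild-type call was lost in 9 of the 28, among them the fits without wild-type male 1 (0.48), wild-type female 1 (0.55), wild-type female 3 (0.57) or knockout male 3 (0.59), with adjusted p up to 0.234.

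Ociad2, a small membrane protein with an OCIA domain, was the gene that stayed higher in males. Knockout males read 8.67, 8.60 and 8.29 and knockout females 7.32, 7.41 and 8.09, with no overlap. The wild-type males read 9.90, 10.36 and 10.03 and the females 8.89, 8.87 and 9.05, so the knockout males lay below the wild-type females and the knockout females lower still. The difference was -0.91 ± 0.20 (adjusted p = 0.0411) against -1.16 (adjusted p = 0.00962) in wild type, and the change of 0.25 had a 95% interval of -0.36 to 0.85 (adjusted p = 0.715). A further probe set of Ociad2 differed by -0.75 in the knockout and -0.87 in wild type. The knockout call was close to the threshold: it was lost in 15 of 28 alternative settings, where the difference ranged from -1.15 to -0.75 and the adjusted p from 0.0111 to 0.199, among them the fits without knockout male 1 (-0.84), knockout male 2 (-0.87), knockout female 1 (-0.77), knockout female 2 (-0.81), wild-type male 1, wild-type male 3, wild-type female 1 and wild-type female 3 (each -0.91). The wild-type call was lost in 5 of the 28, among them the fit without wild-type male 2 (-1.03, adjusted p = 0.0533).

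Cyp2b13 showed the largest difference of any autosomal gene in the knockout, and it ran against the wild-type direction. The gene encodes a cytochrome P450 of the 2b subfamily, enzymes that hydroxylate steroids and foreign compounds. In wild type it was a female gene, with 5.31, 4.99 and 5.06 in males and 12.01, 11.73 and 11.90 in females. In the knockout the males read 10.34, 10.84 and 9.18 and the females 7.71, 8.66 and 6.49, so that every male exceeded every female and both sexes lay between the wild-type sexes. The difference was -2.50 ± 0.48 (adjusted p = 0.0266), a level 5.66-fold higher in knockout males, against a wild-type difference of 6.76 the other way (adjusted p = 7.3e-06). The change of -9.26 ± 0.68 passed its own test (adjusted p = 1.36e-05, and 8.87e-06 to 0.00255 over 27 alternative settings). The knockout difference alone was no longer called without knockout male 1 (-2.39, adjusted p = 0.131), knockout male 2 (-2.14, 0.151) or knockout female 1 (-2.55, 0.0964), within a range of 0.0137 to 0.151 over all 28 alternative settings.

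Its neighbour Cyp2b9, with 0 protein-coding genes between them, did something else. Cyp2b9 read 4.91, 4.49 and 3.87 in wild-type males and 11.60, 11.41 and 11.75 in wild-type females, but 12.24, 12.09 and 12.02 in knockout males and 12.29, 12.27 and 11.49 in knockout females. Both knockout sexes were at or above the wild-type female level and overlapped, with a difference of -0.10 ± 0.26 (adjusted p = 0.894; 95% interval -0.66 to 0.46). The wild-type difference was 7.16 (adjusted p = 1.09e-08), which is a lower bound because the wild-type males lay below the array median. The third relative on the arrays, Cyp2b10, read 9.75, 9.28 and 10.46 in knockout males and 10.28, 10.90 and 9.21 in females, a difference of 0.30 ± 0.51 that was not called (adjusted p = 0.834). Messages of such close relatives can bind each other's probes, so the values of the 3 genes are less certain than those of single-copy genes.

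The start regions of Cyp2b9 and Cyp2b13 are shown because the pair shared a wild-type pattern and parted in the knockout. The 250 bases before each start were identical at 248 positions (99.2%), from chr7:26173159-26173408 for Cyp2b9 and chr7:26061245-26061494 for Cyp2b13, both on the plus strand of GRCm38.p6 in RefSeq. They differed by T48C and C104T, where positions count from the first printed base and the Cyp2b9 base comes first. The capitals mark these 2 positions.
Cyp2b9: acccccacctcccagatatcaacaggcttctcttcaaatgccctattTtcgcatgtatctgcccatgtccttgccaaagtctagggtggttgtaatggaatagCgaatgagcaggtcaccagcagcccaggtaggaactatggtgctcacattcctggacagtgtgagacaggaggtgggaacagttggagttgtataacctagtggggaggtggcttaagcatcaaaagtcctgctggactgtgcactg
Cyp2b13: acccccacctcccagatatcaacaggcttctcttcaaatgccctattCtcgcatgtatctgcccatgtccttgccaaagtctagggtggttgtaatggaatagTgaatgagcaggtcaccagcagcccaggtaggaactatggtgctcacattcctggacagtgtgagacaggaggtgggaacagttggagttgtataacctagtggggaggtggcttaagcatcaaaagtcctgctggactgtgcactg

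Keg1 reversed in the other direction, from male-biased to female-biased. It belongs to the glycine N-acyltransferase-like family, whose better known members conjugate acyl groups to glycine. Wild-type males read 11.96, 11.85 and 11.77 and wild-type females 10.37, 9.89 and 10.18. Knockout males read 9.79, 9.84 and 9.78, the tightest group of the 4 and below every wild-type female, and knockout females read 10.67, 10.44 and 10.66, above every wild-type female. The knockout difference was 0.78 ± 0.13 (adjusted p = 0.018) and the wild-type difference -1.71 (adjusted p = 1.12e-05). The change of 2.50 ± 0.18 was called (adjusted p = 1.27e-05, and 2.86e-06 to 0.000882 over 27 alternative settings). The knockout call was lost without knockout male 1 (0.78, adjusted p = 0.105), knockout male 2 (0.80, 0.107) or knockout female 1 (0.74, 0.0834), with 0.00406 to 0.107 over all 28 settings.

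Tafa2, which encodes a secreted chemokine-like protein, reversed from female-biased to male-biased. Wild-type males were dim at 4.13, 3.58 and 3.63 and wild-type females read 6.93, 6.44 and 6.89. Knockout males read 8.47, 8.44 and 8.34 and knockout females 7.23, 7.70 and 6.98, so both knockout sexes exceeded the wild-type females and the males were the higher. The difference was -1.11 ± 0.20 (adjusted p = 0.0238) against 2.97 or more in wild type (adjusted p = 4.92e-06), and the change of -4.09 ± 0.29 was called (adjusted p = 1.08e-05, and 2.86e-06 to 0.00117 over 27 alternative settings). Without knockout male 1 (-1.09, adjusted p = 0.12), knockout male 2 (-1.10, 0.132), knockout female 1 (-1.08, 0.0964) or knockout female 3 (-0.95, 0.0558) the knockout difference was not called, within 0.00767 to 0.132 over all 28 settings.

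**Figure D2:**
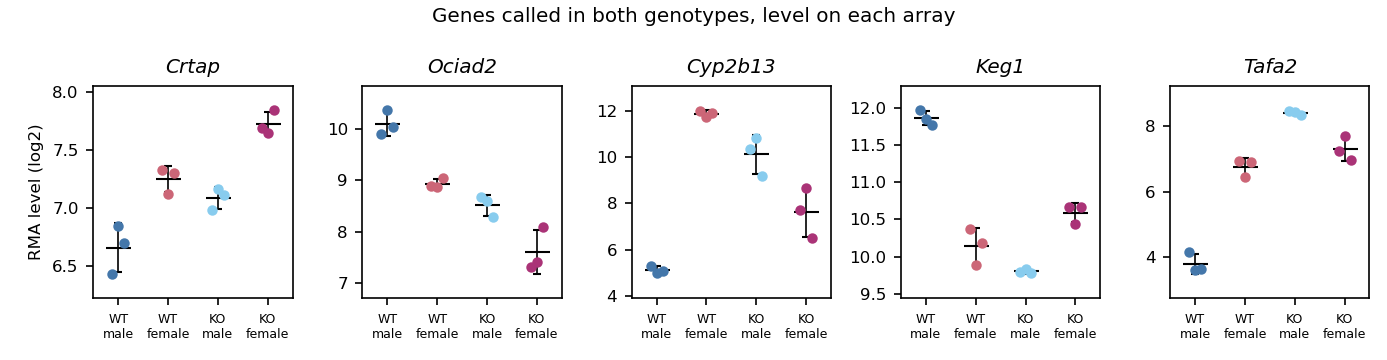
Level of the 5 genes called in both genotypes on each array (RMA, log2), with each point a mouse and the bars the mean ± SD of 3 mice. Crtap and Ociad2 show a step between the sexes in the same direction in both genotypes, whereas Cyp2b13 and Tafa2 were higher in wild-type females and in knockout males, and Keg1 in wild-type males and in knockout females.

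The remaining 230 genes of the wild-type sex difference were not called in the knockout. Over all 235 wild-type genes the median size went from 0.96 in wild type to 0.17 in the knockout, close to the 0.15 of all autosomal genes tested, and 132 kept their sign. The wild-type and knockout differences of these genes, which come from separate mice, correlated with Pearson's r = 0.04 across genes, which are not independent replicates. In 61 of the 235 the knockout sexes did not overlap, against 23.8% of all autosomal genes, and in wild type 16.4% of all genes did not overlap. For 221 of the 230 the knockout 95% interval left out the wild-type value. This count ignores the error of the wild-type value, and the genes were picked on their calls, so it is a description. Of the 230 genes 67 passed the test of the change itself. That test called 96 autosomal genes in all (0.815%), with the knockout difference above the wild-type one in 48 (0.408%) and below it in 48 (0.408%).

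Most genes with a 2-fold wild-type difference had both knockout sexes on the female side. Being nearer the female mean includes values beyond it. Slco1a1 averaged 5.73 in knockout males and 5.76 in knockout females, against 9.66 in wild-type females. Sult2a2 averaged 13.55 and 13.52, against 11.67. Of the 74 genes at least 2-fold higher in wild-type females, both knockout sexes lay nearer the wild-type female mean than the male mean in 67, and the median difference went from 1.38 to 0.02. Of the 37 genes at least 2-fold higher in wild-type males the same held for 36, and the median went from -1.77 to -0.17. The knockout difference was under 50% of the wild-type one in size in 106 of the 111. The 5 that kept a 2-fold step in either direction were Cyp2b13, Tafa2, Cyp2d9, Hsd3b5 and Tmem98.

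Several female-type enzymes and transporters with large wild-type steps overlapped between the knockout sexes. Slc22a26, an organic anion transporter of the SLC22 family, read 10.84, 10.56 and 10.57 in knockout males and 10.60, 10.84 and 10.70 in females, against 3.77, 3.74 and 3.5 in wild-type males. Its knockout difference of 0.06 ± 0.12 had a 95% interval of -0.20 to 0.31, beside at least 7.10 in wild type (adjusted p = 4.21e-12). Sult3a1, a sulfotransferase, read 11.07, 11.35 and 10.40 in knockout males and 9.87, 10.87 and 11.09 in females, with overlap and a difference of -0.33 ± 0.34. Sult2a2, a sulfotransferase of hydroxysteroids, differed by -0.03 ± 0.67 between 13.71, 13.42 and 13.51 in males and 13.68, 13.50 and 13.38 in females. This error is pooled over the 4 groups. The SD was 1.25 in wild-type males and 1.49 in wild-type females, against 0.14 and 0.15 in knockout males and females. Tcf24, a helix-loop-helix factor, differed by 0.11 ± 0.14, where the wild-type step was at least 4.17. The DNA repair gene Rad51b was spread widely, with 8.86, 8.51 and 8.33 in knockout males and 8.51, 7.02 and 9.81 in females. Its difference of -0.12 ± 0.50 ranged from -0.80 to 0.59 over 28 alternative settings, beside at least 4.64 in wild type.

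A part of the female-type genes lay below 0 in the knockout, that is, somewhat higher in males, without passing the threshold. Hao2, a peroxisomal hydroxyacid oxidase, read 10.98, 11.12 and 10.86 in knockout males and 10.24, 10.73 and 10.39 in females. These groups did not overlap, and the difference was -0.53 ± 0.24 (adjusted p = 0.309). The transporters Slc22a29 and Slc22a27 differed by -0.61 ± 0.23 (adjusted p = 0.212) and -0.38 ± 0.21 (adjusted p = 0.429). Over the 34 female-biased genes listed from general knowledge, 18 lay below 0 and 16 above it in the knockout, 1 was called (Cyp2b13, lower), and the median was -0.05 against 1.57 in wild type, where 20 were called higher. Cyp3a16 and Cyp3a44, known as female-type P450s, differed by 0.14 ± 0.76 and 0.39 ± 0.31 in the knockout, and were not called in wild type either, where the females ranged from 4.85 to 9.16 for Cyp3a16.

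The male-type genes named here lay below every wild-type male in both knockout sexes, with a remainder in males for a few. Cyp2d9, a P450 known for steroid hydroxylation in males, read 10.02, 8.41 and 7.84 in knockout males and 8.03, 6.97 and 6.59 in knockout females, against 13.63 to 13.82 in wild-type males. The groups overlapped and the difference of -1.56 ± 0.48 was not called (adjusted p = 0.133, and 0.0491 to 0.383 over 28 alternative settings). Hsd3b5, a steroid dehydrogenase of male liver, read 7.38, 5.17 and 4.14 in knockout males and 3.87, 4.14 and 4.48 in females, and Cyp4a12a, a fatty acid hydroxylase, 6.24, 4.50 and 4.12 in males and 4.04, 4.14 and 4.02 in females. The excess in both came from knockout male 1, which also held the highest Cyp2d9, Elovl3 and Cyp7b1 of the knockout males. The fitted difference of Hsd3b5, whose knockout females were dim, was -1.40 ± 0.68 (adjusted p = 0.352) and -0.49 without knockout male 1. Both knockout groups were dim for Cyp4a12a, whose fitted difference was -0.89 ± 0.43 (adjusted p = 0.353) and -0.24 without knockout male 1.

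Cyp7b1, the oxysterol hydroxylase, read 10.68, 10.40 and 10.27 in knockout males and 10.12, 9.99 and 10.13 in females. The groups did not overlap, and the difference of -0.37 ± 0.12 (adjusted p = 0.137) stood beside -3.10 in wild type (adjusted p = 1.39e-08). Nat8, an acetyltransferase, differed by -0.17 ± 0.22, Ugt2b38, a glucuronosyltransferase dim in both knockout sexes, by 0.25 ± 0.41, C6 of the terminal complement pathway by 0.24 ± 0.23 and the urinary protein gene Mup10 by -0.30 ± 0.33. Mup10 read 8.73 to 10.13 in the knockout mice, above the 7.76 to 8.54 of the wild-type females. Elovl3, a fatty acid elongase, differed by -0.82 ± 0.66 with wide and overlapping groups. Scara5, a ferritin receptor, was dim in both knockout sexes, and the uptake transporter Slco1a1 differed by 0.03 ± 0.57. Of the 23 male-biased genes listed from general knowledge 0 were called in the knockout, with a median of -0.08, whereas 18 were called lower in wild-type females with a list median of -2.56. In limma 3 of the 23 had an unadjusted p under 0.05 in the knockout. The same held for 7 of the 34 female-biased genes, beside 15.6% of all autosomal genes.

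**Figure D3:**
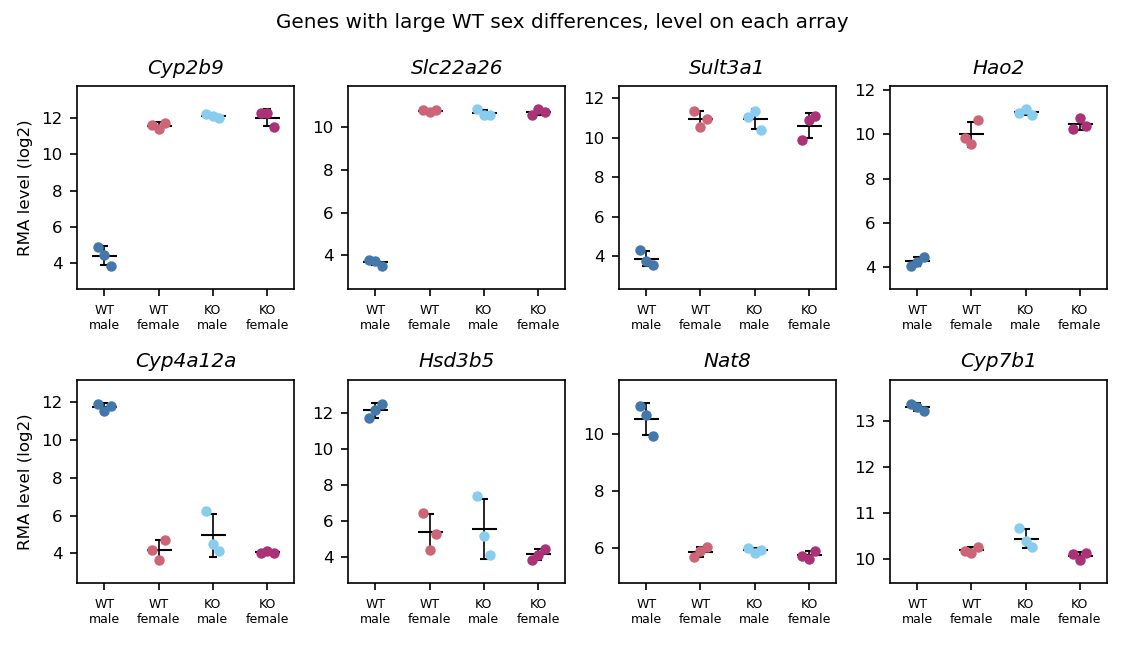
Level on each array (RMA, log2) of 4 female-type genes (top) and 4 male-type genes (bottom) with large wild-type differences, where points are mice and bars the mean ± SD of 3. Wild-type males stand apart in every panel, the knockout sexes lie together near the wild-type females, and in Hsd3b5 and Cyp4a12a 1 knockout male lies above the rest.

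Within the chosen set of growth hormone and IGF genes, 0 were called between the knockout sexes. As a whole this set lay on the female side. Akt1 (0.85), Shc1 (0.55) and Sh2b3 (0.66) fell outside the set and were called higher in knockout females. These 3 were named after their values were seen. Their calls held in 21, 7 and 22 of 27 alternative settings. Other probe sets above the filter differed by 0.89, 0.03 and -0.23 for Akt1, 0.06 for Shc1 and 0.02 for Sh2b3. Of 28 genes of the growth hormone and IGF axis 0 were called in limma and 9 had an unadjusted p under 0.05, beside 15.6% of all autosomal genes. The difference was positive in 22 of the 28, with a median of 0.30 against 0.01 for all autosomal genes and a median size of 0.32 against 0.15. Ghr, the receptor, differed by -0.11 ± 0.12 (95% interval -0.38 to 0.16) and Stat5b by 0.17 ± 0.32. Igf1, the circulating growth factor, read 12.73, 12.75 and 12.67 in knockout males and 12.95, 12.80 and 13.22 in females, a difference of 0.27 ± 0.12 (adjusted p = 0.293) with no overlap. Igfals, which holds IGF in the serum complex, read 10.03, 9.81 and 9.41 in males and 10.60, 10.34 and 10.33 in females (0.67 ± 0.17, adjusted p = 0.0742). Socs2, a feedback inhibitor that growth hormone induces, differed by 0.69 ± 0.25 (adjusted p = 0.195). All of the last 3 were higher in each knockout female than in each knockout male, and none was called. Of all autosomal genes, 23.8% likewise did not overlap between the knockout sexes, in either direction.

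Among the transcription factors tied to the male and female programs, Bcl6, a repressor of female-type genes, was 8.31 to 9.44 in wild-type males and 5.65 to 6.62 in all 6 knockout mice, with a difference of -0.55 ± 0.41 (adjusted p = 0.573). Cux2, known as a female-type repressor, differed by -0.07 ± 0.14 on its brightest probe set, and its wild-type value depended on the probe set. Esr1, the oestrogen receptor, read 10.85, 10.82 and 10.86 in knockout males and 11.15, 11.09 and 11.07 in knockout females. Its difference was 0.26 ± 0.36, with an error pooled over the 4 groups. The SD was 0.98 in wild-type males, 0.02 in knockout males and 0.05 in knockout females. The receptor Lifr differed by 0.44 ± 0.18 (adjusted p = 0.265) and Serpina6, the corticosteroid carrier, by 0.20 ± 0.24. The knockout sexes did not overlap in Bcl6, Esr1 and Lifr, beside 23.8% of all autosomal genes. Cyp2a4, Sult1e1 and Prlr had no probe set of 1 gene above the filter on dim values and were not tested.

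Since STAT5 binds the core TTCNNNGAA, the 250 bases before each start were searched for it. The word reads the same on both strands, so 1 search covers both. It was present in 16 of 176 genes with a listed start that lost their wild-type call (9.09%), in 13 of 185 newly called genes (7.03%), in 569 of 9498 autosomal genes tested (5.99%) and in 1940 of all 27025 starts (7.18%). Among the genes of both genotypes, Keg1 held it at 173 to 165 and again at 107 to 99 bases before the start, and 0 matches were found in Crtap, Ociad2, Cyp2b9, Cyp2b13 and Tafa2. Only genes that hold the core are printed here. Keg1 was taken because its difference reversed. Slc22a26 (141 to 133 bases before the start) and Sult3a1 (109 to 101) are examples of the 16 that lost their call. The stretches are chr19:12695540-12695789 on the plus strand, chr19:7802668-7802917 on the minus strand and chr10:33857472-33857721 on the plus strand of GRCm38.p6 in RefSeq, and capitals mark the core. A match is a description of the letters and no measured site.
Keg1: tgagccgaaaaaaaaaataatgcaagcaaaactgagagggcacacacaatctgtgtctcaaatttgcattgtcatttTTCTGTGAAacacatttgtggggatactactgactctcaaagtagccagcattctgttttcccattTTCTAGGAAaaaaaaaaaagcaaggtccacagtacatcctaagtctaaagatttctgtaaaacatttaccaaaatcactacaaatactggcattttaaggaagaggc
Slc22a26: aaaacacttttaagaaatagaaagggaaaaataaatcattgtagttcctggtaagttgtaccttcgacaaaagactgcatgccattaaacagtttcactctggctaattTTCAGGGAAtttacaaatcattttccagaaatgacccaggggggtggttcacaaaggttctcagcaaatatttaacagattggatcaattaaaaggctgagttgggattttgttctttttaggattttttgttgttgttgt
Sult3a1: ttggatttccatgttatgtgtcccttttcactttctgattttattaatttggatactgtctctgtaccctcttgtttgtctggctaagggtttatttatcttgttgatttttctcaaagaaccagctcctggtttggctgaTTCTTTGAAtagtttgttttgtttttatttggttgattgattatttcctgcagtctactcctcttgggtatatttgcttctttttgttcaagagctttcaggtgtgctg

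The 219 genes called in the knockout and not in wild type made up most of the remaining difference, and 216 of them were higher in females. Their median difference was 0.74, from 0.39 to 1.66 among the female-higher genes, beside 0.05 for the same 216 genes in wild type, and 183 of the 219 had a wild-type difference smaller than 0.25. In 187 of the 216 all 3 knockout females lay above all 9 other arrays. The mean level of the 216 genes was 8.62, 8.50 and 8.50 in the knockout females, 7.72, 7.69 and 7.91 in the knockout males and 7.79 to 7.95 in the wild-type mice. This mean is a description, as the genes were picked on these arrays. Being called in 1 genotype alone does not show that the genotypes differ: the test of the change called 19 of the 219. Across all autosomal genes, the knockout females stood above the other 9 arrays in 700 and below them in 231, against 110 and 126 for the knockout males.

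The largest newly called difference was in Anxa6, an annexin that binds membranes in the presence of calcium. Knockout females read 9.46, 9.56 and 8.55 and knockout males 7.26, 7.28 and 8.05, and the wild-type mice 6.96 to 7.65. The difference was 1.66 ± 0.30 (adjusted p = 0.0233), and the change against wild type, 1.78 ± 0.42, was not called (adjusted p = 0.0783). Its other probe sets above the filter differed by 1.32, -0.06 and 0.22, so the size depended on the part of the message probed. Mlf2 read 10.32, 9.98 and 9.38 in knockout females and 8.21, 8.25 and 8.76 in males, a difference of 1.48 ± 0.26 (adjusted p = 0.0233) with a called change of 1.88 ± 0.37 (adjusted p = 0.0436, and 0.0176 to 0.203 over 27 alternative settings). Both calls in the knockout were lost without knockout male 1 (1.52 and 1.39), knockout male 2 (1.53 and 1.41) or knockout female 1 (1.52 and 1.27), and the change of Mlf2 was also lost without any 1 wild-type array other than wild-type female 3 and without knockout female 2.

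Ablim3, which links LIM domains to actin, read 6.96, 7.03 and 7.40 in knockout females and 5.79, 5.58 and 5.98 in knockout males, against 6.23 to 7.11 in wild type. It was the knockout males that stood apart here, all below the other 9 arrays. The difference was 1.35 ± 0.18 (adjusted p = 0.0088) and the change 1.72 ± 0.26 (adjusted p = 0.00939, and 0.0042 to 0.0561 over 27 alternative settings). Zyx, the focal adhesion protein zyxin, read 8.25, 7.76 and 7.67 in knockout females, 6.47, 6.78 and 7.08 in knockout males and 6.57 to 6.69 in wild type. Its difference of 1.12 ± 0.17 (adjusted p = 0.0136) came with a change of 1.17 ± 0.24 just under the threshold (adjusted p = 0.0484, and 0.0284 to 0.203 over 27 alternative settings), and its other probe set differed by 0.24. The change of Zyx was lost in 19 of the 27, among them the fits without any 1 wild-type array, knockout male 1 or 2, or knockout female 1 or 2. The call of Ablim3 in the knockout was lost without knockout male 1 (1.35, adjusted p = 0.058) or knockout male 2 (1.24, 0.06), and that of Zyx without knockout male 1 (0.97, 0.0712), knockout male 2 (1.12, 0.0804) or knockout female 1 (0.94, 0.0509).

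The other members of the largest 12 follow. Sod3, the extracellular superoxide dismutase, read 7.46, 7.37 and 7.14 in knockout females, 5.88, 6.00 and 6.20 in knockout males and 5.25 to 6.10 in wild type, a difference of 1.29 ± 0.17 (adjusted p = 0.00687) whose change was not called (adjusted p = 0.14). Without knockout male 1 or knockout male 2 its adjusted p was 0.058 and 0.0589, and a second probe set differed by 0.58. Oplah, the oxoprolinase of the glutathione cycle, read 10.68, 10.16 and 10.70 in knockout females and 9.46, 9.38 and 9.36 in knockout males (1.11 ± 0.16, adjusted p = 0.0103). Psmb7, a catalytic subunit of the proteasome, read 11.64, 11.35 and 10.77 against 10.60 or less in all knockout males (1.13 ± 0.24, adjusted p = 0.0411). Upf1, the helicase of nonsense-mediated decay, differed by 1.12 ± 0.21 and Tfpt, a subunit of the INO80 chromatin remodeller, by 1.27 ± 0.20, with other Tfpt probe sets at 0.43 and 0.46. Oasl2, an interferon-induced gene, differed by 1.19 ± 0.24 and lay at 0.85 or more in wild type without a call there. Tbc1d8, a TBC domain protein, differed by 1.20 ± 0.21, and Ttc7b, which helps to anchor a phosphatidylinositol kinase at the plasma membrane, by at least 1.46 (adjusted p = 0.0491) since the knockout males were dim. The call of Ttc7b was lost in 21 of 28 alternative settings (0.80 to 1.82, adjusted p 0.0119 to 0.208), among them the fits without any 1 array other than wild-type female 2 and knockout female 2. That of Psmb7 was lost in 14 (0.94 to 1.37, adjusted p 0.0189 to 0.198), among them the fits without any 1 array other than wild-type female 2, knockout male 3 and knockout female 3. The calls of Tfpt, Tbc1d8, Upf1 and Oplah were lost in 5, 6, 6 and 4 settings, in each case without knockout male 1, knockout male 2 or knockout female 1, and those of Tbc1d8 and Upf1 also without knockout female 3. Oasl2 lost its call in 7, among them the fits without any 1 knockout male, knockout female 2 or knockout female 3.

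**Figure D4:**
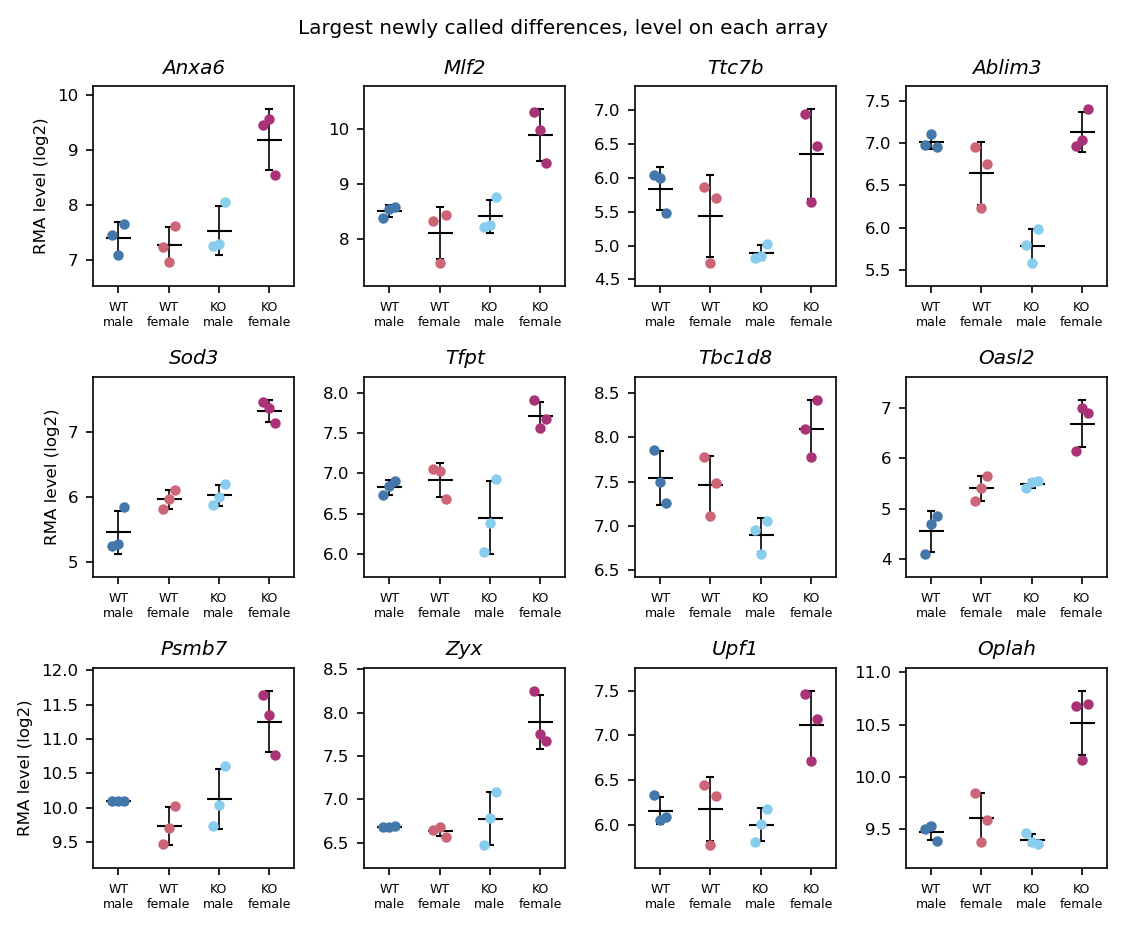
Level on each array (RMA, log2) of the 12 largest female-higher differences called in the knockout and not in wild type, with points for mice and bars for the mean ± SD of 3. In Sod3, Zyx, Mlf2, Anxa6, Oplah and Upf1 the knockout females stand above all other arrays, whereas in Ablim3 the knockout males stand below them.

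The 3 newly called genes that were lower in knockout females differed by -0.89, -0.78 and -0.53, beside a median size of 0.74 over the 219. Rprd2, which binds the tail of RNA polymerase II, read 6.99, 6.99 and 6.68 in knockout females and 7.65, 8.03 and 7.64 in males (-0.89 ± 0.20, adjusted p = 0.0458), but its other bright probe sets differed by 0.18, 0.32, -0.08 and 0.49 and the mean of all its probe sets by 0.04. The gene 1810014B01Rik differed by -0.78 ± 0.17 (adjusted p = 0.0456) and Bivm by -0.53 ± 0.12 (adjusted p = 0.0495). None of the 3 had a called change. The knockout call was lost in 18 of 28 settings for Rprd2, which also reversed in 1, in 22 of 28 for Bivm and in 18 of 27 for 1810014B01Rik. Leaving out any 1 of 10 arrays ended it for Rprd2 and for 1810014B01Rik, and any 1 of 11 for Bivm.

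A part of the new genes differed on tight groups and passed most alternatives. These were chosen after their values were seen, as the 10 genes that were still called with the 6 knockout arrays alone: Ablim3, Sod3, Parva, Npr2, Pnpla2, Rbck1, Ehmt2, Ncln, Prelp and Zswim8. Parva, the parvin that joins integrin-linked kinase to actin, was the only gene called in all 27 alternative settings counted for it. It read 9.16, 9.12 and 9.08 in knockout females and 8.27, 8.08 and 8.30 in knockout males, with a difference of 0.90 ± 0.10 (adjusted p = 0.00331), beside -0.01 in wild type and a called change (adjusted p = 0.0111). Its other probe set differed by 0.48. Npr2, a natriuretic peptide receptor, read 9.35, 9.08 and 9.29 in knockout females and 8.20, 8.35 and 8.34 in males (0.94 ± 0.12, adjusted p = 0.00605; change adjusted p = 0.0274) and was called in 26 settings. Pnpla2, the adipose triglyceride lipase, read 8.94, 8.64 and 9.0 against 7.71, 7.77 and 7.93 (1.06 ± 0.13, adjusted p = 0.0065; change adjusted p = 0.0132). Rbck1, of the linear ubiquitin ligase, and Ehmt2, a histone methyltransferase, differed by 0.84 ± 0.10 and 0.83 ± 0.11. Prelp and Zswim8 differed by 0.85 and 1.06, and another probe set of each above the filter by 0.42 and 0.13. Without knockout male 1 the knockout call was lost in Npr2, Pnpla2, Rbck1, Ehmt2, Ncln, Prelp and Zswim8, and without knockout male 2 in these other than Npr2. Without knockout female 1 it was lost in Ncln, Prelp and Zswim8. The change was less firm: the call of the change was lost in 1 of 27 settings for Parva (adjusted p up to 0.0664), in 2 for Pnpla2 (up to 0.0972, among them without knockout male 2), in 10 for Npr2 (up to 0.106), in 13 for Rbck1 (up to 0.126) and in 14 for Zswim8 (up to 0.13). For Npr2, Rbck1 and Zswim8 leaving out any 1 of 8, 9 and 10 arrays did so.

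Other probe sets of the called genes were set beside the chosen ones. Of the 224 called genes 81 had another probe set above the filter, 123 probe sets in all. In the knockout 90 of the 123 had the sign of the chosen probe set 37 had that sign and at least 50% of its size, and 12 had that sign and a larger difference. Among 3327 tested probe sets with no single gene name, 24 were called in the knockout, 18 of them higher in females.

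No pathway list held more than 1 called gene in the knockout. Hadha, a subunit of the mitochondrial trifunctional protein, was 1 of 37 fatty acid oxidation genes called, with 11.52, 11.09 and 11.30 in females and 10.30, 10.44 and 10.48 in males (0.90 ± 0.16, adjusted p = 0.0218), while the list had a median of -0.02. Its call was lost without knockout male 1, knockout male 2 or knockout female 1. Serpina3n, a protease inhibitor of the acute phase, was the 1 call among 15 serpins and among 26 acute phase genes (0.67 ± 0.14, adjusted p = 0.0335), lost in 10 of 28 settings, among them the fits without wild-type male 1, any 1 knockout male, knockout female 1 or knockout female 2. Atf3, a stress-induced transcription factor, was the 1 call among 23 genes of the unfolded protein response, with 6.78, 5.90 and 6.70 in females and 5.66, 5.54 and 5.47 in males (0.91 ± 0.20, adjusted p = 0.0458). The call of Atf3 was lost in 22 of 28 settings (0.73 to 1.19, adjusted p up to 0.203), among them the fits without any 1 array other than knockout female 2. Of 54 cytochrome P450s 10 had an unadjusted p under 0.05 in limma, and Cyp2b13 was the 1 call, where wild type had 11. The counts were 0 of 45 conjugating enzymes, 0 of 30 transporters, 0 of 22 sex steroid genes, 0 of 3 major urinary proteins, 0 of 38 lipogenic genes, 0 of 19 cholesterol synthesis genes, 0 of 30 bile acid genes and 0 of 35 complement and coagulation genes. At an unadjusted p under 0.05 limma gave 6, 4, 0, 0, 11, 0, 8 and 4 of these lists in that order, beside 15.6% of all autosomal genes, so the lipogenic and bile acid lists lay above the share of all genes.

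The listed interferon genes had a median of 0.52 in wild-type females over males and 0.05 in the knockout. In the knockout 0 of these 32 were called and 2 had an unadjusted p under 0.05 in limma. Oasl2, an interferon-induced gene outside the list, was called there (1.19 ± 0.24, adjusted p = 0.0317). Of 26 genes of glucose and insulin handling, 20 of glucocorticoid handling, 27 nuclear receptors, 18 proliferation genes and 4 of the somatostatin system, 0 were called, and 6, 3, 8, 7 and 0 had an unadjusted p under 0.05 in limma. The proliferation list had the highest median, 0.41, with 17 of 18 above 0 and no call. These counts are to be read beside 1.90% of all autosomal genes called and 15.6% with an unadjusted p under 0.05, and the glucose and insulin, nuclear receptor and proliferation lists lay above the second of these shares.

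**Figure D5:**
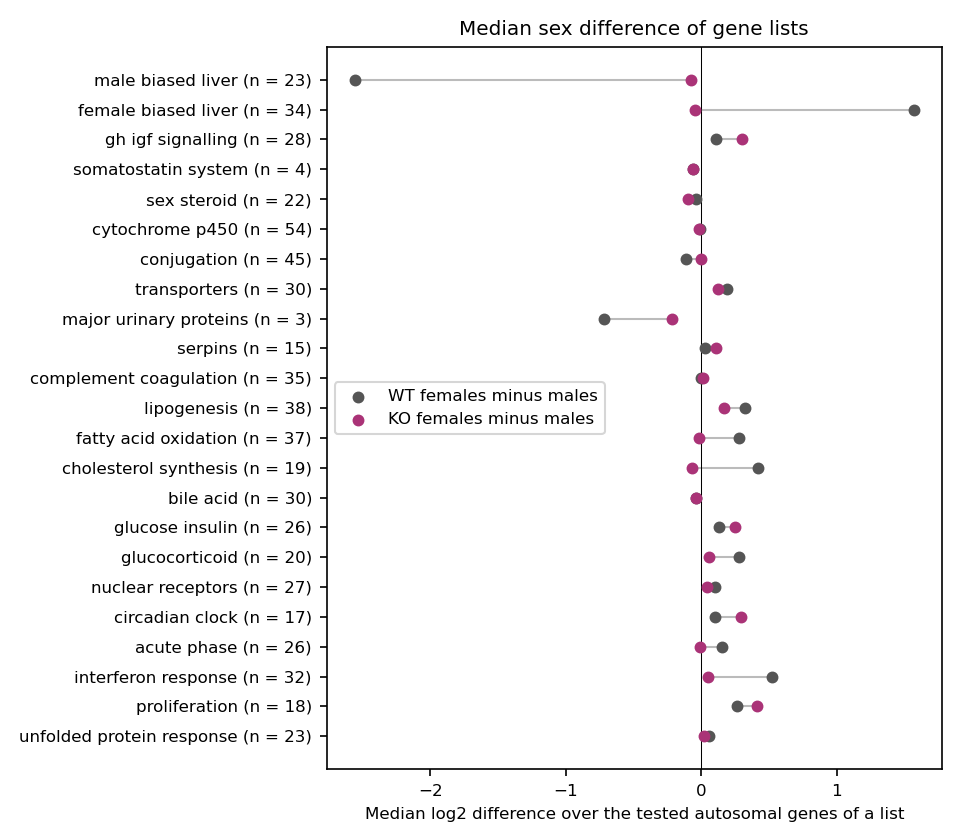
Median female minus male difference (log2) over the tested autosomal genes of each list in wild-type (WT, grey) and knockout (KO, purple) mice, with the number of genes tested. The male-biased list goes from -2.56 to -0.08 and the female-biased list from 1.57 to -0.05, and the other lists move less than these.

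Markers of other cell types gave 1 call. The endothelial list separated the knockout sexes by its mean level but not by its summed level. The adipose list did so by its summed level but not by its mean level. The mean level of the 12 endothelial markers was 8.09, 8.09 and 8.14 in knockout males and 8.26, 8.38 and 8.37 in knockout females, with no overlap. The summed level of the 3 adipose markers was 14.11 to 14.16 in knockout males and 13.65 to 14.05 in knockout females, again with no overlap, and in limma 2 of the 3 had an unadjusted p under 0.05. Their mean level overlapped, at 8.59, 8.71 and 8.64 in knockout males and 8.51, 8.68 and 8.71 in knockout females. Of all single autosomal genes, 23.8% did not overlap between the knockout sexes. Of 13 stellate cell and fibroblast markers 1 was called, Ecm1, a secreted matrix protein, with 10.99, 10.89 and 10.75 in females and 9.87, 10.07 and 10.15 in males (0.85 ± 0.15, adjusted p = 0.0218), a call lost without knockout male 1, knockout male 2 or knockout female 1. The summed level of that list was 13.22 to 13.43 in knockout males and 13.39 to 13.57 in knockout females (log2). No gene was called among 11 Kupffer cell markers (summed 13.76 to 13.88 and 13.67 to 13.99), 12 endothelial markers (12.55 to 12.61 and 12.56 to 12.75), 4 cholangiocyte markers, 9 T and NK cell markers, 4 B and plasma cell markers (list median -0.40) or 4 neutrophil markers, the last with a highest sum of 9.86 in a knockout female. At an unadjusted p under 0.05 limma gave 0, 4, 1, 0, 1 and 0 of these 6 lists. In bulk tissue fewer cells of a type and less RNA per cell cannot be told apart. Their part in the newly called genes was not tested.

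Clock genes and RNA quality values of the knockout arrays were as follows. Per2, a component of the circadian clock, read 6.11, 6.44 and 5.55 in knockout males and 9.09, 5.51 and 8.32 in knockout females, so that 2 of 3 females stood apart. In limma 0 of 17 clock genes were called, and 0 had an unadjusted p under 0.05. With the main axis of the 17 clock genes (their first principal component) as a covariate, chosen after seeing the data, 203 genes were called in the knockout, 145 of them among the 224. The beta-actin control difference between 3′ and 5′ probes was 1.19, 1.01 and 1.02 in knockout males and 0.82, 0.84 and 1.41 in knockout females, and that of Gapdh was between -0.03 and 0.17 in all 6. With these as a covariate 194 genes were called, 175 of them among the 224.

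Over the chromosomes, the share of autosomal genes called in the knockout was 3.73% on chromosome 7 (35 of 939), 3.58% on chromosome 17 (21 of 586) and 2.82% on chromosome 5 (22 of 779), and 0 of 445 were called on chromosome 13. In wild type the shares on chromosomes 7, 17 and 13 were 2.34%, 1.19% and 2.25%. Cyp2b13 and Parva lie on chromosome 7, Keg1 on chromosome 19, Tafa2 on chromosome 10, Crtap on chromosome 9 and Ociad2 on chromosome 5.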

How the data were processed

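Liver RNA of 12 mice was measured on 12 arrays (250 ng of RNA each), 3 per sex and genotype. The authors deposited log2 values per probe set, which the submitters' processing notes credit to RMA, and 0 value columns were left unused. Precision is limited by the number of arrays.

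Of 45101 probe sets, 64 were controls, 34945 named 1 gene, 932 several and 9160 none. Names came from the platform annotation, checked by Entrez identifier in RefSeq's genes on GRCm38.p6 (99.4% matched). The brightest probe set stood for each of 18193 genes, and the 12158 above the array median (4.94 to 4.97) on at least 3 arrays were tested: 11778 autosomal, 322 X-linked, 6 Y-linked and 52 without an assigned chromosome. X- and Y-linked genes stayed in the fit and were left out of the text. A group below the array median is called dim, and its difference is read as a lower bound apart from its standard error.

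With limma 3.58.1 (R 4.3.3) a model of 4 group means was fitted over the 12 arrays (8 residual and 3.72 prior degrees of freedom), after a test on simulated data. The contrasts were females minus males in each genotype and the change between them, with Benjamini-Hochberg adjustment over 12158 genes and a threshold of 0.05. Errors are standard errors of the fit, with 1 spread per gene pooled over the 4 groups, and intervals are 95%. Other software was data.table at version 1.17.8, matplotlib 3.10.9 and Python 3.11.15.

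The members, gene lists and named genes were chosen with earlier results of these data known. Named were all genes called in both genotypes, the 12 largest in each direction of those called in the knockout alone whose groups did not overlap, up to 4 called per list, the 10 largest wild-type differences in each direction and a fixed set. Other names were chosen after their values were seen: Parva, Npr2, Pnpla2, Rbck1, Ehmt2, Ncln, Prelp, Zswim8, Tmem98, Alb and Per2. So were Akt1, Shc1, Sh2b3, Lepr, Cd36, Vldlr and Atp6v0d2. The erythroid marker list had 0 genes tested, and the lists of hepatocyte zones (8 and 10 genes), adipose (3), pancreas (2) and muscle (3) had 0 called in the knockout. Alternatives covered filters, probe set choice, scaling, weights, variance model, covariates, blocks and each array left out.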

Additional observations from a re-analysis of the deposited data

Results flagged for a closer look

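The sex difference of 96 autosomal genes changed between the genotypes by a test of the change itself (limma, adjusted p under 0.05), and the values below are knockout minus wild-type differences in log2 units for those of them that the text names. The female-type genes were Cyp2b13 at -9.26, Sult3a1 at -7.40, Cyp2b9 at -7.26, Slc22a26 at -7.04, Hao2 at -6.28, Sult2a2 at -5.65, Slc22a27 at -4.80, Rad51b at -4.76, Slc22a29 at -4.66, Tafa2 at -4.09 and Tcf24 at -4.06. The male-type genes were Cyp4a12a at 6.65, Ugt2b38 at 5.52, Hsd3b5 at 5.36, Nat8 at 4.47, Scara5 at 4.36, C6 at 3.37, Cyp7b1 at 2.73, Mup10 at 2.58 and Keg1 at 2.50. Among those genes without a called wild-type difference were Mlf2 at 1.88, Ablim3 at 1.72 and Zyx at 1.17. The genes named after their values were seen were Vldlr at -3.70, Atp6v0d2 at -2.13, Cd36 at -1.82, Pnpla2 at 1.18, Zswim8 at 1.14, Parva at 0.92, Npr2 at 0.91 and Rbck1 at 0.77. Groups of 3 were not screened for single outlying arrays.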

How the results depend on the processing

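Array number limits every count here. The knockout count was 224, the newly called count 219, the kept count 2, the reversed count 3, the wild-type count 235, the no-longer-called count 230 and the count of changes 96. Leaving out 1 array at a time gave 2 to 256, 2 to 250, 0 to 4, 0 to 5, 112 to 393, 107 to 386 and 40 to 136 in that order. The knockout count fell to 2 without knockout male 1 or 2 and to 16 without knockout female 1, and without knockout female 2 its split was 181 higher and 42 lower. A common median gave 84 knockout and 79 new calls. Array weights gave 505 knockout, 495 new, 6 kept and 148 changes. Without moderation there were 69 knockout, 68 new, 0 kept, 1 reversed, 152 wild-type, 151 no-longer-called and 59 changes. At 2-fold or more there were 29 knockout, 27 new, 0 kept, 111 wild-type and 109 no longer called. Fits to 6 arrays gave 10 knockout, 10 new, 0 kept, 0 reversed, 109 wild-type and 109 no longer called. The 3′ to 5′ covariate gave 0 kept, 107 wild-type, 104 no-longer-called and 56 changes. Without wild-type females 1 and 2 together these were 0, 73, 71 and 53. The mean of all probe sets and the most variable probe set each gave 1 kept, and the clock covariate, added after seeing the data, 5 kept and 146 changes. The causes of these shifts were not tested.

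With the replicate number as a block there were 107 knockout, 102 new, 2 kept and 62 changes, where the 2 kept were Cyp2d9 and Oasl2. The numbers do not pair the mice: deviations of same-numbered mice correlated from -0.33 to 0.39 over 18 pairs, 2 of them above 0.1. Over the named genes, knockout values had the same call in 1736 cases, lost it in 239, gained it in 10 and reversed in 1 (Rprd2, 0.04 with the mean of all probe sets). Wild-type Cux2 reversed to 1.34 and 3.44 with the mean and the most variable probe set.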

Other observations

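Among the wild-type dimorphic genes, several with an unadjusted p under 0.05 in the knockout lay on opposite sides in the genotypes, and these were chosen after their values were seen. Cd36, the fatty acid translocase, read 11.29, 11.41 and 11.13 in knockout males and 10.65, 10.39 and 10.52 in knockout females, a difference of -0.76 ± 0.20 (adjusted p = 0.0839) beside 1.06 in wild type, and its change was called (adjusted p = 0.0115). Vldlr, a lipoprotein receptor, differed by -0.82 ± 0.33 in the knockout and by at least 2.88 in wild type (adjusted p of the change = 0.00283). Atp6v0d2, a subunit of the vacuolar proton pump, differed by -0.88 and 1.26 (adjusted p of the change = 0.0361). The change of Cd36 was lost in 3 of 27 alternative settings and that of Atp6v0d2 in 12, among them the fits without any 1 of 7 arrays, and the wild-type call of Cd36 was lost without any 1 wild-type female. In all 3 the knockout males exceeded the wild-type females on average.

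Tmem98 kept its size without a call in the knockout, with 7.69, 8.02 and 8.54 in males and 9.36, 9.15 and 8.78 in females (1.01 ± 0.25, adjusted p = 0.0664) beside 1.12 in wild type, where the call was lost in 14 of 28 alternative settings, 6 of them fits that leave out 1 array. Lepr, the leptin receptor, had the largest positive knockout difference of any autosomal gene, 2.30 ± 0.58 (adjusted p = 0.0699), beside 2.07 in wild type, and was called in neither genotype.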
